A study of Mus musculus with 6 samples.

Results

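The nuclear receptors for steroid hormones, the progesterone receptor membrane components and the pair of FK506-binding immunophilins that ride on receptor complexes were followed in mouse tumor Leydig cells with and without the steroidogenic acute regulatory protein, STAR. They were chosen by gene symbol, Esr1, Esr2, Nr3c1, Nr3c2, Pgr, Pgrmc1, Pgrmc2, Fkbp4 and Fkbp5. Of these 9 symbols, 6 had rows among the 14774 genes analysed, and Esr2, Nr3c2 and Pgr were not analysed here. MA-10 is an established mouse Leydig tumor line, wild type for Star. STARKO1 is a line grown from a single MA-10 cell after CRISPR/Cas9 cutting in exon 2 of Star, so the loss of STAR and the history of that 1 clone cannot be told apart. Both lines were untreated, and total RNA was sequenced in 3 libraries of each. Nothing in the labels says whether the 3 libraries of a line came from separate cultures, so p-values measure only the spread between these libraries, which may be technical.

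Steroid receptors of the NR3 subfamily are transcription factors that wait in the cytoplasm or nucleus in complexes with HSP90, bind a steroid, and then act at response elements in DNA. FKBP4 (FKBP52) and FKBP5 (FKBP51) are co-chaperones with peptidyl-prolyl isomerase domains that compete for the same HSP90-receptor complexes. FKBP4 favours hormone binding and nuclear transport of the glucocorticoid and progesterone receptors, while FKBP5 lowers the hormone affinity of the glucocorticoid receptor and is itself one of its best known target genes. PGRMC1 and PGRMC2 are membrane proteins with a cytochrome b5-like haem-binding domain, tied to rapid progesterone responses, haem handling and cytochrome P450 enzymes. MA-10 cells make progesterone as their main steroid, and Leydig cells of the testis are known to hold oestrogen receptor alpha and the glucocorticoid receptor.

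In the deposited coordinates (GRCm38, mm10) Esr1, the oestrogen receptor alpha gene, lies at chr10:4611593-5005614 on the plus strand. Pgrmc1 lies at chrX:36598206-36606079 on the plus strand and Pgrmc2 at chr3:41066326-41083046 on the minus strand. Fkbp4 lies at chr6:128429735-128438677 and Fkbp5 at chr17:28399094-28517527, both on the minus strand. All are protein-coding genes, Nr3c1 too, and each count covers the whole gene rather than one of its transcripts, of which GENCODE lists 10 for Esr1, 9 for Nr3c1, 1 for Pgrmc1, 2 for Pgrmc2, 4 for Fkbp4 and 15 for Fkbp5.

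Promoter sequence is shown for the paralog pairs, whose members are set against each other below, and for a start of Esr1, the gene with the smallest p-value of the set. The windows are the RefSeq bases (GRCm38.p6) before the first transcribed base, 250 long where no exon of the gene reaches into them, written 5′ to 3′ on the strand of the gene. Capitals mark matches, on either strand, to any of 9 motifs: the glucocorticoid half-site AGAACA, the oestrogen half-site AGGTCA, the palindrome of each (the half-site, NNN and its reverse complement), the GC box GGGCGG, the CCAAT box CCAAT, the TATA box TATAAA, the cAMP response element TGACGTCA, and a pair of heat shock units, GAANNTTC. In Fkbp5 a GC box and a reversed CCAAT box lie end to end and read as 1 capital run.
Pgrmc1 (chrX:36597943-36598192, plus strand): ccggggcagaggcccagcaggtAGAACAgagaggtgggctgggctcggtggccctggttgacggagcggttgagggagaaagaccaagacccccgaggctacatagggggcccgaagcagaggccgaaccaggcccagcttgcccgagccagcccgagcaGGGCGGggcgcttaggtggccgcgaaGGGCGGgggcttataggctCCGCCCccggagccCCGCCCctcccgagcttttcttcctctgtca
Pgrmc2 (chr3:41083047-41083296, minus strand): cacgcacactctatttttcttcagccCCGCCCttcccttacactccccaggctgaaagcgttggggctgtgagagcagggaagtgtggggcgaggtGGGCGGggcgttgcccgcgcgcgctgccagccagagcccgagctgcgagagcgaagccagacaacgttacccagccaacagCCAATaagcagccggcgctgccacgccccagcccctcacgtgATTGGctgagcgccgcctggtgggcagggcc
Fkbp4 (chr6:128438678-128438906, minus strand): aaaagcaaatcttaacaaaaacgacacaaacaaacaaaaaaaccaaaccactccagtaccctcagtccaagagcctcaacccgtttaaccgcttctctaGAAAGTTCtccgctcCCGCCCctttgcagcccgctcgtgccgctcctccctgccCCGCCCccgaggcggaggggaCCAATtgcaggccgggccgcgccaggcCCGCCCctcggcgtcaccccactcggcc
Fkbp5 (chr17:28486150-28486399, minus strand): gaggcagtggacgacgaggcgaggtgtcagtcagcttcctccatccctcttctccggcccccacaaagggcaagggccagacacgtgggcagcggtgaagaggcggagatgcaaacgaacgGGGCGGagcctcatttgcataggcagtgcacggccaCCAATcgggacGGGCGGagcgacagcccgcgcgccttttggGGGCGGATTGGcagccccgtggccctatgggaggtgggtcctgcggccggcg
Esr1 (chr10:4709908-4710154, plus strand): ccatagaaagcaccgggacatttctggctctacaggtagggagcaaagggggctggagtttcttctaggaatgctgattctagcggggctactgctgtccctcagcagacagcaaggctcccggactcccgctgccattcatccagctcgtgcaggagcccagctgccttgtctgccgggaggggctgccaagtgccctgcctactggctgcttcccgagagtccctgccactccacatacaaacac
The promoters of the paralog pairs were rich in G and C, at 69.6% in Pgrmc1, 67.2% in Pgrmc2, 63.2% in Fkbp4 and 68.0% in Fkbp5, against a median of 52.4% (quartiles 45.2 and 61.2%) over 32851 promoter windows of 250 bases. All shares are over 250 bases, also where exon bases were left out of the print. The Fkbp5 window lies inside the deposited span of that gene, before a RefSeq start downstream of the gene's first annotated base. GC boxes were found in all of these 4 windows, with 4 matches in Pgrmc1, 2 in Pgrmc2 and 3 in each FKBP gene, and 32.7% of all windows hold at least 1. The CCAAT box had 2 matches in Pgrmc2, 1 in Fkbp4 and 2 in Fkbp5, against 33.8% of all windows with at least 1. Pgrmc1 had 1 match to the glucocorticoid half-site, which 16.1% of all windows hold, and Fkbp4 had 1 pair of heat shock units, which 6.69% hold. The full palindromes are in 0.00913% (glucocorticoid) and 0.0213% (oestrogen) of all windows and in none of those shown, the oestrogen half-site is in 14% of all windows, the TATA box in 12.4% and the cAMP response element in 1.55%. The Esr1 window held no match and had 59.6% G and C. The window of another RefSeq start of Esr1, not printed since it lies inside an exon of the gene, held 1 CCAAT box and had 47.6% G and C. A match describes these letters only and is no evidence of binding.

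Star, the gene cut in STARKO1, is given before the rest. Its counts were 1064, 1261 and 697 in MA-10 and 48, 46 and 36 in STARKO1. In CPM (counts per 1000000 of the scaled library total), Star was at 60.9, 109 and 61.4 in MA-10 and at 2.07, 2.71 and 2.02 in STARKO1, a log2 fold change (STARKO1 minus MA-10 throughout) of -5.09 (SE 0.331, adjusted p = 0.00121 by edgeR's quasi-likelihood test). All 3 MA-10 libraries were far above all 3 STARKO1 libraries.

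The libraries held 14114351 to 19530062 counts. MA-10 replicates 2 and 3 stood apart from the other 4 libraries: the 7SL RNA took 14.4 and 6.63% of their counts against 1.81 to 2.37% elsewhere, and 86 ribosomal protein genes took 8.63 and 7.79% against 4.23 to 4.61%. MA-10 replicate 1 lay with the STARKO1 libraries in both measures. All 12 Leydig markers were measured, and their summed level was 1645 to 2209 CPM in MA-10 and 1612 to 1673 CPM in STARKO1. Of 12 Leydig markers none passed the test upwards, and Star, Hsd3b1 and Inha fell (25% called, against 9.04% of all genes). Star, the gene cut in STARKO1, is counted in that share, which is therefore higher than that of the other markers. Of the other cell types the table held 4 of 8 Sertoli, 1 of 8 germ cell, 3 of 8 macrophage, 2 of 8 endothelial and 2 of 6 myoid markers. Of these, the endothelial cadherin gene Cdh5 rose (log2 fold change 1.84) and the muscle filament gene Des fell (-3.00), and the defining Sertoli genes Amh, Sox9, Fshr and Wt1 were not analysed here. What part these differences have in the results below was not tested.

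None of the 6 genes passed the test between STARKO1 and MA-10 at an adjusted p under 0.05 (edgeR), where 9.04% of the 11939 genes tested did, 4.30% higher and 4.74% lower in STARKO1. At an unadjusted p under 0.05 the count was also 0 of 6, against 37.6% of all genes, and DESeq2 called 0 of 6, against 28.4% of all genes, with Esr1 the only one at an unadjusted p under 0.05 there. The median log2 fold change of the 6 genes was -0.02, beside -0.05 for all genes tested. For each of them the range of CPM within MA-10 was wider than the difference between the means of the lines, as the plot of CPM by library shows.

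**Figure D1:**
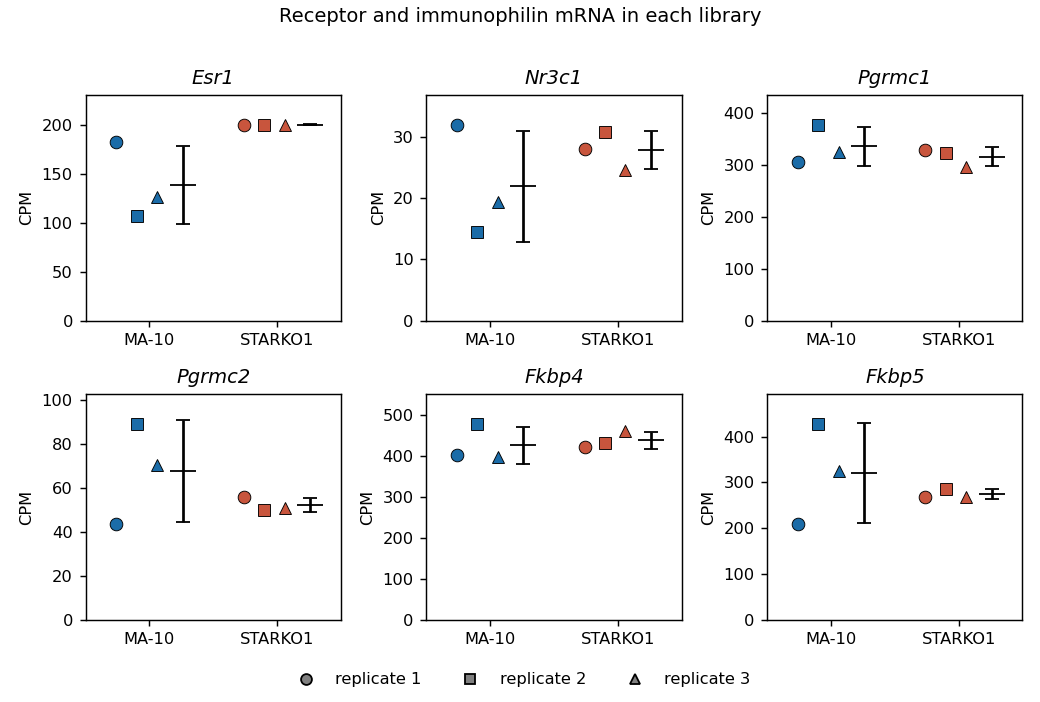
Level of each gene in CPM (y axis from 0) in MA-10 (blue) and STARKO1 (red), with one point per library, its shape giving the replicate number, and a bar for the mean ± SD of 3 libraries. The STARKO1 points lie close together in every panel, while MA-10 replicate 1 lies apart from MA-10 replicates 2 and 3 for Esr1, Nr3c1, Pgrmc2 and Fkbp5.

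Among the nuclear receptors, Esr1 lay at percentile 91 of the mean CPM of tested genes and Nr3c1 at percentile 51. These ranks leave gene length aside. Esr1 stood at 183, 107 and 126 CPM in the MA-10 libraries and at 200.8, 200.2 and 200.6 CPM in the STARKO1 libraries. All 3 STARKO1 libraries were above all 3 MA-10 libraries, an order without overlap that 42.5% of all tested genes showed in one direction or the other and 21.5% in this one. The difference, 139 ± 39.6 CPM against 200.6 ± 0.286 CPM (SD, n = 3 each), gave a log2 fold change of 0.53 (SE 0.230, 95% interval -0.01 to 1.08), with an adjusted p of 0.141 by edgeR and 0.0938 by DESeq2. It thus did not pass the test, and its interval runs from just below 0 to an increase of more than 1 on the log2 scale. Whether the interval held 0 varied with the processing. It ran from 0.06 to 0.91 with offsets for gene length and from -0.07 to 1.21 with a block for the replicate number. Neither fit called Esr1.

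The glucocorticoid receptor gene Nr3c1 lies at chr18:39410545-39519421 on the minus strand (GRCm38). It was measured at 32.0, 14.5 and 19.3 CPM in MA-10 and at 28.0, 30.7 and 24.6 CPM in STARKO1. MA-10 replicate 1 was above all STARKO1 libraries, and the other MA-10 libraries were below them. The log2 fold change was 0.34 (SE 0.298, 95% interval -0.37 to 1.04, adjusted p = 0.421 by edgeR). Esr1 and Nr3c1 kept a similar proportion to each other: Nr3c1 counts were 17.5, 13.6 and 15.3% of Esr1 counts in MA-10 and 13.95, 15.3 and 12.2% in STARKO1, a share that leaves gene length aside.

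The membrane components are a pair of paralogs with unlike levels. Pgrmc1 lay at 305, 378 and 325 CPM in MA-10 and at 329.5, 323 and 296 CPM in STARKO1. The groups overlapped, with MA-10 replicate 2 the highest of the 6 libraries. The means of 336 ± 37.6 and 316 ± 18.0 CPM (SD, n = 3) differed by less than the SD of MA-10, and the log2 fold change was -0.09 (SE 0.180, 95% interval -0.52 to 0.34, adjusted p = 0.735 by edgeR), a sign that turned with library size or upper quartile scaling and with offsets for gene length.

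Pgrmc2 lay at 43.4, 89.2 and 70.3 CPM in MA-10 and at 55.9, 49.9 and 51.0 CPM in STARKO1. Here MA-10 replicate 1 was below all STARKO1 libraries and MA-10 replicates 2 and 3 were above them. The log2 fold change was -0.37 (SE 0.266, 95% interval -1.003 to 0.26, adjusted p = 0.327 by edgeR), and it was 0.16 when libraries were scaled by their size alone.

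Of the immunophilins, Fkbp4 varied least of the set within MA-10. It lay at 402, 479 and 397 CPM in MA-10 and at 422, 433 and 462 CPM in STARKO1, with the STARKO1 libraries inside the MA-10 range. The log2 fold change was 0.04 (95% interval -0.39 to 0.48, adjusted p = 0.875 by edgeR), an interval that does not exclude a moderate change in either direction. Fkbp5 lay at 209.7, 428 and 325 CPM in MA-10 and at 268.6, 286.5 and 268.7 CPM in STARKO1. As for Pgrmc2, MA-10 replicate 1 was below the STARKO1 libraries and the other MA-10 libraries were above them. The log2 fold change of Fkbp5 was -0.22 (95% interval -0.88 to 0.43, adjusted p = 0.564 by edgeR), and 0.31 with library size alone.

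The genes differed in how far they moved among the MA-10 libraries. MA-10 replicates 2 and 3 both lay outside the STARKO1 range on the same side for Esr1, Nr3c1, Pgrmc2 and Fkbp5, 4 of 6 genes, against 77.5% of all genes, and MA-10 replicate 1 lay inside that range for Pgrmc1 only, against 18.9% of all genes. From MA-10 replicate 1 to replicate 2, the log2 value (of CPM + 0.5) of Nr3c1 fell by 1.12 and that of Esr1 by 0.77, while Pgrmc2 was 1.03 and Fkbp5 1.03 higher and Pgrmc1 and Fkbp4 were 0.31 and 0.25 higher, each from single libraries and with no test. The coefficient of variation in MA-10 was 41.2% for Nr3c1, 34.0% for Pgrmc2, 34.1% for Fkbp5 and 28.5% for Esr1, but 11.2% for Pgrmc1 and 10.8% for Fkbp4. Over the 8220 genes that averaged 10 CPM or more, the median was 27.6% in MA-10. In STARKO1 it was 5.07%, and the genes of the set lay between 0.143% for Esr1 and 11.1% for Nr3c1.

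The same libraries differed by gene length over the whole table. For genes with under 2000 bases of exon (2181 genes) the median log2 CPM was 0.41 higher in MA-10 replicate 2 than in replicate 1, and for genes with at least 10000 bases (1066 genes) the median difference was -0.36. Esr1, with 13661 bases of exon, and Nr3c1, with 7684, moved in the direction of their length class, though further than its median (-0.36 and -0.24). Fkbp5, with 9468 bases, was higher in replicate 2 although the median of its class was -0.24. These classes use all annotated exons of a gene. The longest Fkbp5 transcript has 3858 bases, which lies in the class from 2000 to 5000 bases, with a median of 0.07. That of Esr1 has 6339 bases, also in another class. The part of gene length in these differences was not tested.

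**Figure D2:**
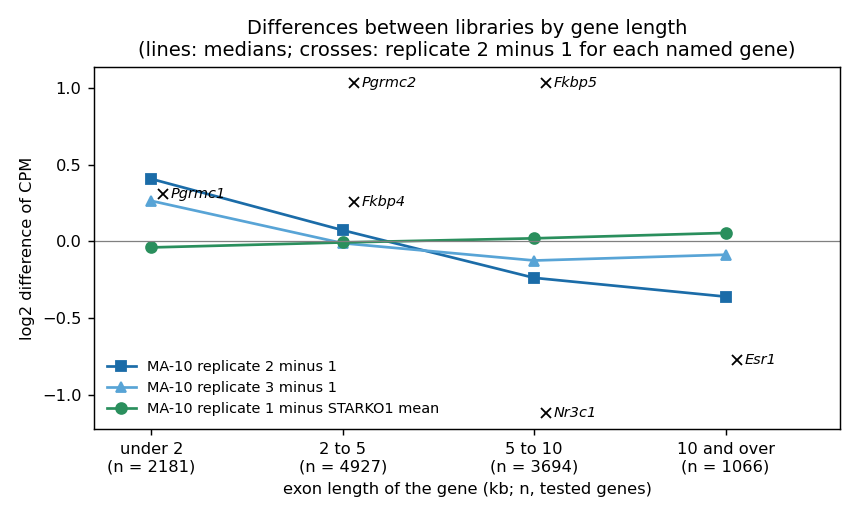
Median log2 difference of CPM (y axis) over tested genes in 4 classes of exon length (x axis, kb, with the number of genes), for MA-10 replicate 2 minus 1, MA-10 replicate 3 minus 1 and MA-10 replicate 1 minus the STARKO1 mean. Crosses give replicate 2 minus 1 for each named gene, and Fkbp5 and Pgrmc2 at 1.03 lie far above the medians of their classes while Nr3c1 at -1.12 lies far below.

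The calls between the lines turned on 1 library. Without MA-10 replicate 1, Esr1 was higher in STARKO1 by 0.87 on the log2 scale (adjusted p = 0.000516 by edgeR) and Nr3c1 by 0.80 (adjusted p = 0.00373), whereas Pgrmc2 fell by 0.52 (adjusted p = 0.00719) and Fkbp5 fell by 0.36 (adjusted p = 0.0405). Pgrmc1 at -0.06 (adjusted p = 0.662) and Fkbp4 at 0.09 (adjusted p = 0.516) still did not pass. These 4 calls of 6 stand beside 65.7% of all genes called in that fit. With MA-10 replicate 1 as the only MA-10 library, a setting chosen after seeing the data in which that library is assumed to vary as the STARKO1 libraries do, Fkbp5 (0.39, adjusted p = 0.00114) and Pgrmc2 (0.27, adjusted p = 0.0361) were higher in STARKO1, and 40.5% of all genes were called. Both thus took the opposite sign according to which MA-10 libraries were used. Esr1 kept its sign, at 0.13 (adjusted p = 0.151), and Nr3c1 did not, at -0.20 (adjusted p = 0.201).

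**Figure D3:**
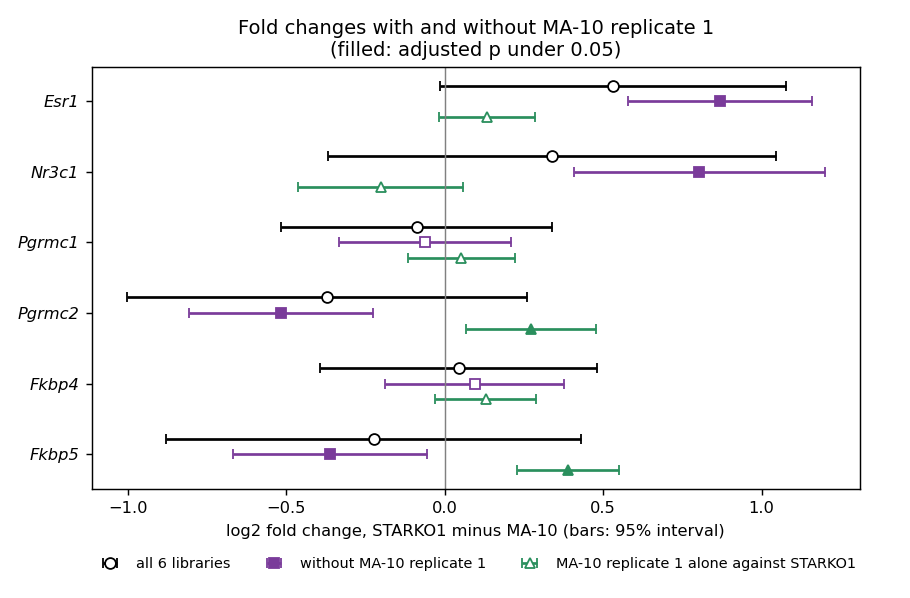
Log2 fold change (x axis, STARKO1 minus MA-10) with its 95% interval for each gene in edgeR fits with all 6 libraries, without MA-10 replicate 1, and with MA-10 replicate 1 alone. Filled symbols mark an adjusted p under 0.05, and Pgrmc2 and Fkbp5 are filled on opposite sides of 0 in the last 2 fits (-0.52 and 0.27 for Pgrmc2).

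Ratios between paralogs within a library do not depend on how libraries are scaled. Fkbp5 counts were 52.2, 89.3 and 81.7% of Fkbp4 counts in MA-10 and 63.6, 66.2 and 58.1% in STARKO1. The log2 ratio was -0.46 ± 0.415 in MA-10 and -0.68 ± 0.0961 in STARKO1 (SD, n = 3), a difference of -0.21 with p = 0.4 by a two-sided exact permutation test, whose smallest possible p is 0.1. Pgrmc2 counts were 14.2, 23.6 and 21.6% of Pgrmc1 counts in MA-10 and 17.0, 15.5 and 17.2% in STARKO1. That log2 ratio was -2.37 ± 0.390 in MA-10 and -2.60 ± 0.0856 in STARKO1, a difference of -0.23 with an exact permutation p of 0.4 (adjusted over the 2 pairs, 0.4). In both pairs MA-10 replicate 1 was below the STARKO1 libraries and MA-10 replicates 2 and 3 were above them.

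**Figure D4:**
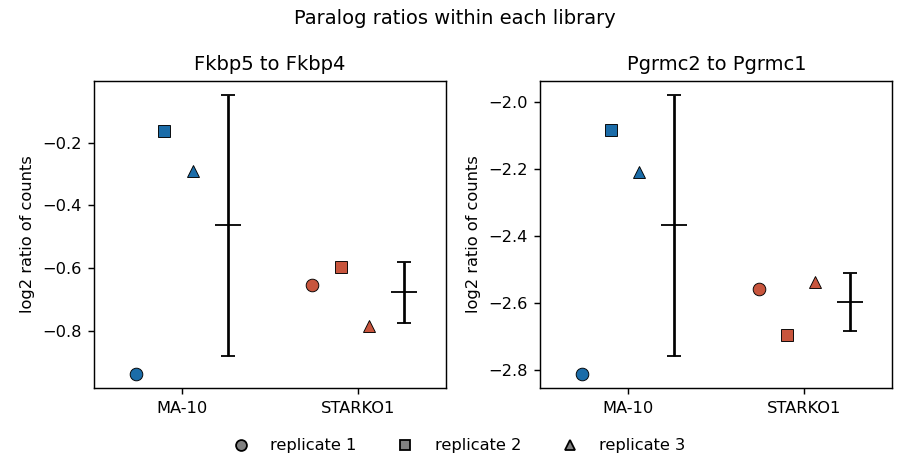
Log2 ratio of counts within each library (y axis) of Fkbp5 to Fkbp4 and of Pgrmc2 to Pgrmc1 in MA-10 (blue) and STARKO1 (red), with one point per library and bars for the mean ± SD of 3 libraries. MA-10 replicate 1 is the lowest point of both panels (-0.94 and -2.81).

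Levels were also set against each other per length of exon, as CPM per kb of all annotated exons. In MA-10 the order was Pgrmc1 (181 ± 20.3), Fkbp4 (152 ± 16.5), Fkbp5 (33.9 ± 11.5), Pgrmc2 (20.9 ± 7.09), Esr1 (10.2 ± 2.90) and Nr3c1 (2.85 ± 1.18), each as mean ± SD of 3 libraries. The libraries of Pgrmc1 and Fkbp4 overlapped, as did those of Fkbp5 and Pgrmc2 and those of Pgrmc2 and Esr1. In STARKO1 the order was the same, at 170, 157, 29.0, 16.1, 14.7 and 3.61 CPM per kb, and only Pgrmc1 and Fkbp4 overlapped. On the longest transcript in place of all exons, Esr1 (31.6 CPM per kb) stood above Pgrmc2 (17.4) in STARKO1, so the order of these 2 genes depends on the length used. Within these levels Fkbp4 exceeded Fkbp5 per length in every library, and Pgrmc1 exceeded Pgrmc2.

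Esr1 had the smallest p-value of the set, and the 3 genes with the most similar profile over the 6 libraries, among the same 8220 genes, were Nup155 (Pearson r = 0.9995), a nuclear pore component, Sbf1 (0.9992), a myotubularin-related pseudophosphatase, and Adgra3 (0.9988), an adhesion G protein-coupled receptor. The 6 points share their libraries and their scaling, so the values describe only likeness. None of the 3 passed the test, at log2 fold changes of 0.86, 1.18 and 0.76.

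Around the receptors, 149 further genes in 10 lists were tested, namely relatives, chaperones, cofactors, hormone-responsive genes and enzymes of the ligands. Of these, 15 passed the test (10.1%, against 9.04% of all genes), 8 higher and 7 lower in STARKO1. Without MA-10 replicate 1 the count was 101, in a fit that called 65.7% of all genes. It was 9 without MA-10 replicate 2 and 5 without MA-10 replicate 3, where 4.19 and 1.49% of all genes were called. It was 3 without any 1 of the STARKO1 libraries, where 0.730, 1.11 and 0.760% of all genes were called. Fkbp11, Lcn2 and Hsd3b1 passed in all 6 of these fits.

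**Figure D5:**
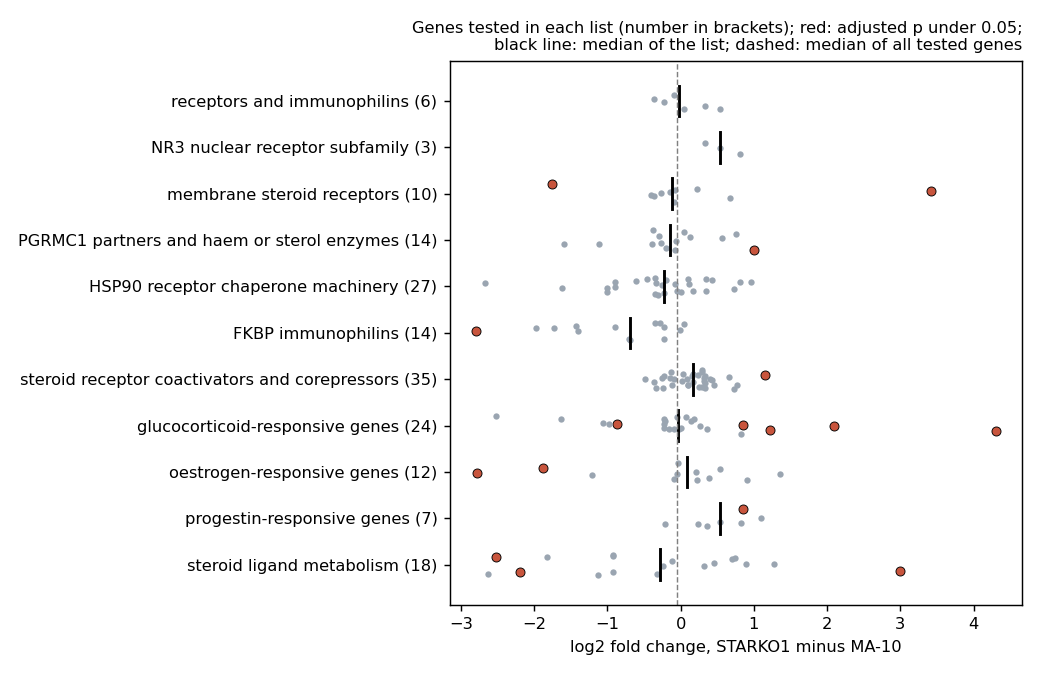
Log2 fold change (x axis, STARKO1 minus MA-10) of every tested gene in each list (y axis, number tested in brackets). Red points passed the test, black bars give the median of each list and the dashed line that of all tested genes (-0.05), and the FKBP list lies furthest to the left with a median of -0.70.

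Among the receptors themselves, 3 NR3 nuclear receptors were listed (Esr1, Nr3c1 and the oestrogen-related receptor gene Esrra), with a median log2 fold change of 0.53. None passed by edgeR (9.04% of all genes did) or by DESeq2 (28.4%). None had an unadjusted p under 0.05 by edgeR (37.6% of all genes did). Without MA-10 replicate 1 all 3 passed, in a fit that called 65.7% of all genes. Of 10 membrane steroid receptors and relatives (median -0.12), 1 rose and 1 fell (20% of the list, against 9.04% of all genes). Gper1, the G protein-coupled oestrogen receptor, had 6, 3 and 1 counts in the MA-10 libraries and 64, 46 and 45 in the STARKO1 libraries. All STARKO1 libraries were above all MA-10 libraries (log2 fold change 3.42, SE 0.413, adjusted p = 0.00749 by edgeR), at levels of only 2.53 to 2.75 CPM in STARKO1. Without any 1 of the STARKO1 libraries its adjusted p was 0.0555 to 0.0603 and did not pass. Paqr8, a membrane progestin receptor of the PAQR family, stood at 7.39, 4.25 and 2.99 CPM in MA-10 and at 1.46, 1.83 and 1.07 CPM in STARKO1. It fell by 1.76 on the log2 scale (SE 0.404, adjusted p = 0.0451 by edgeR), a call kept without MA-10 replicate 1 and lost without any 1 of the other 5 libraries (adjusted p 0.0801 to 0.200). Paqr8 passed in 5 of 12 other alternative settings.

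Of 14 partners of PGRMC1 and enzymes of haem and sterols (median -0.14), only Cyp51 passed (7.14%, against 9.04% of all genes). This gene, for the lanosterol demethylase that a PGRMC1 homolog supports in yeast, stood at 190, 124 and 163 CPM in MA-10 and at 322.5, 290 and 341 CPM in STARKO1, and it rose by 0.998 (SE 0.213, adjusted p = 0.0385 by edgeR). Serbp1, for an RNA-binding protein known to bind PGRMC1, gave -0.29 (adjusted p = 0.473) and Cyb5b, the outer mitochondrial cytochrome b5, gave 0.04 (adjusted p = 0.913). The call of Cyp51 was kept without MA-10 replicate 1 and lost without any 1 of the others (adjusted p 0.0559 to 0.189).

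The HSP90 machinery that holds unliganded receptors had 27 measured genes (median -0.23). None of them passed, against 9.04% of all genes. At an unadjusted p under 0.05 there were 8 of 27 (37.6% of all genes), DESeq2 called 8 (28.4% of all genes), and without MA-10 replicate 1 edgeR called 18 (65.7% of all genes), so these counts lay near the background. Hsp90ab1, the constitutive HSP90 gene, lay at 4949, 4905 and 5666 CPM in MA-10 and at 4968, 5335 and 5332 CPM in STARKO1 (log2 fold change 0.01, adjusted p = 0.979 by edgeR), and Hspa8, for the constitutive HSP70, gave 0.12 (adjusted p = 0.756). The co-chaperone gene Ptges3 and the inducible HSP90 gene Hsp90aa1, picked after their values were seen, gave -0.60 and -0.35 and did not pass. Of the 27 genes, 17 had a negative and 10 a positive log2 fold change, from Dnajb6 at -2.67 to Hspa1b at 0.96. Of 14 FKBP genes, Fkbp4 and Fkbp5 included, 13 had a negative log2 fold change (median -0.70, beside -0.05 for all genes tested). The share of negative values over all genes was not counted. At an unadjusted p under 0.05 by edgeR there were 6 (37.6% of all genes), and DESeq2 called 4 (28.4% of all genes). MA-10 replicate 1 lay inside the STARKO1 range for Fkbp1a, Fkbp1b and Fkbp2, and outside it for the others, on either side. Only Fkbp11, a secretory pathway member of the family, passed (7.14% of the list, against 9.04% of all genes). It stood at 11.2, 18.4 and 14.7 CPM in MA-10 and at 2.15, 2.36 and 1.85 CPM in STARKO1, and fell by 2.79 (SE 0.2502, adjusted p = 0.00297 by edgeR).

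Of 35 receptor coactivators and corepressors (median 0.17), only Ddx17 passed (2.86%, against 9.04% of all genes). Ddx17, an RNA helicase that serves as a coactivator of oestrogen receptors, stood at 53.4, 36.4 and 32.8 CPM in MA-10 and at 92.7, 93.2 and 87.7 CPM in STARKO1, and it rose by 1.16 (SE 0.216, adjusted p = 0.0272 by edgeR). Its paralog Ddx5 gave -0.15 (adjusted p = 0.710) and the cofactor and splicing factor Rbm39 gave -0.37 (adjusted p = 0.286). The call of Ddx17 was kept without MA-10 replicate 1 and lost without any 1 of the others (adjusted p 0.0654 to 0.136).

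Genes known to answer to the receptors were taken receptor by receptor. Of 24 glucocorticoid-responsive genes, 4 rose and 1 fell (median -0.04), which is 20.8% of the list against 9.04% of all genes. At an unadjusted p under 0.05 by edgeR there were 9 of 24 (37.6% of all genes). Lcn2, for the secreted protein lipocalin 2, had 2, 1 and 1 counts in MA-10 and 63, 32 and 30 in STARKO1, which is at least 9.02-fold higher against a floor of 3 counts in each MA-10 library (adjusted p = 0.00456 by edgeR). Pik3r1, the regulatory subunit of PI3-kinase, stood at 42.4, 29.0 and 40.1 CPM in MA-10 and 88.0, 85.5 and 86.1 CPM in STARKO1 (1.22, adjusted p = 0.0155). The transcription factor gene Klf15 (2.10, adjusted p = 0.0389), with at most 4 counts in any MA-10 library, and the EGFR inhibitor gene Errfi1 (0.86, adjusted p = 0.0428) also rose, and the transcription factor gene Cebpd fell by 0.87 (adjusted p = 0.0484). The metallothionein gene Mt1 lay at 496.5, 3706 and 2201 CPM in MA-10 and at 382, 409 and 328 CPM in STARKO1. It did not pass by edgeR (-2.52, adjusted p = 0.0600). DESeq2 called Mt1 (adjusted p = 0.000679, with 28.4% of all genes called). So did edgeR without MA-10 replicate 1 (adjusted p = 2.3e-05, with 65.7% of all genes called). The classical glucocorticoid targets Tsc22d3 (GILZ) and Per1, picked after their values were seen, gave -0.05 (adjusted p = 0.864) and 0.0002601 (adjusted p = 0.9995). Other genes of the list that did not pass by edgeR lay further from 0, such as Dusp1 at 0.82 and Mt2 at -1.63. Klf15, Errfi1 and Cebpd passed in 1 of the 6 fits that left out a library, the one without MA-10 replicate 1. In the other alternative settings Cebpd passed in 3 of 12, Errfi1 in 8 of 12 and Klf15 in 8 of 11. Pik3r1 passed in 2, without MA-10 replicate 1 and without MA-10 replicate 2 (otherwise 0.0719 to 0.0995).

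Of 12 oestrogen-responsive genes none rose and 2 fell (median 0.09), which is 16.7% of the list against 9.04% of all genes. Igfbp4, for an IGF-binding protein, had 31, 17 and 29 counts in MA-10 and 7, 6 and 3 in STARKO1 (fell by 2.78, adjusted p = 0.0142 by edgeR), and Xbp1, a transcription factor of the unfolded protein response, stood at 59.4, 151 and 140 CPM in MA-10 and 30.2, 32.2 and 32.6 CPM in STARKO1 (fell by 1.88, adjusted p = 0.0269). The corepressor gene Nrip1 gave -0.09 and the transcriptional cofactor gene Cited2 0.54, and neither passed. Of 7 progestin-responsive genes (median 0.54), Errfi1 rose and none fell (14.3% called, against 9.04% of all genes). Prlr, the prolactin receptor gene, gave 0.23 (adjusted p = 0.292 by edgeR). The call of Xbp1 was kept only without MA-10 replicate 1, and that of Igfbp4 without MA-10 replicates 1 or 2.

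Enzymes that make or convert the ligands completed the set, with 18 genes tested, 1 higher and 2 lower (median -0.28). These calls were 16.7% of the list, against 9.04% of all genes. At an unadjusted p under 0.05 by edgeR there were 13 of 18 (37.6% of all genes), and DESeq2 called 12 (28.4% of all genes). Without MA-10 replicate 1 edgeR called 16 (65.7% of all genes). These counts come from the same libraries and from a list chosen with earlier results known. No set test was run, so they only describe the list. What part the differences between the MA-10 libraries have in these counts was not tested. Hsd3b1, for a 3-beta-hydroxysteroid dehydrogenase that yields progesterone, stood at 27.8, 37.2 and 24.3 CPM in MA-10 and 5.12, 5.72 and 4.72 CPM in STARKO1, and fell by 2.52 (SE 0.219, adjusted p = 0.00268 by edgeR). Its paralog Hsd3b6 was far more abundant (427, 710 and 583 CPM in MA-10, 288, 320 and 297 CPM in STARKO1) and did not pass (-0.93, adjusted p = 0.0568). How reads that could come from either gene were counted is not given in the sources used here. Hsd11b1, for the enzyme that regenerates active glucocorticoid, had 20, 18 and 13 counts in MA-10 and 8, 3 and 5 in STARKO1 (fell by 2.20, adjusted p = 0.0231). Srd5a2, a steroid 5-alpha-reductase, had 1, 6 and 2 counts in MA-10 and 37, 41 and 30 in STARKO1 (2.99, adjusted p = 0.0357). Cyp11a1, the cholesterol side-chain cleavage enzyme, stood at 610, 1118 and 777.5 CPM in MA-10 and at 432, 434 and 450 CPM in STARKO1. It gave -0.93 and did not pass by edgeR (adjusted p = 0.0670). DESeq2, which called 28.4% of all genes, called Cyp11a1 (adjusted p = 0.008005) and Hsd3b6 (adjusted p = 0.00289). So did edgeR without MA-10 replicate 1 (adjusted p = 0.000597 and 0.00021), where 65.7% of all genes were called. Hsd11b1 kept its call only without MA-10 replicate 1 (otherwise adjusted p 0.0542 to 0.148), and Srd5a2 without MA-10 replicates 1 or 2.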

How the data were processed

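Total RNA of untreated MA-10 and STARKO1 cells was sequenced from libraries of a stranded kit that starts from small amounts of RNA, with 3 libraries per line. The deposited table held estimated counts per gene that the authors had not normalized, and 54.2% of its 14774 genes had at least 1 value that was not whole. The submitters' processing notes name STAR 2.6.1d, Partek and mm10, and the counting settings, strand included, are not given in the sources used here. No gene's row total was under 10. The deposited stop of each gene described lies 1 base past the end in GENCODE vM21, whose exons gave the gene lengths. No exon of these genes overlapped an annotated exon of another gene.

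Counts were rounded and tested with edgeR 4.0.16 in R 4.3.3 (filterByExpr, TMM scaling, quasi-likelihood test). P-values were adjusted by Benjamini-Hochberg over 11939 genes, and genes under 0.05 were called. The SE is the size of the log2 fold change over the square root of F. CPM is the count per 1000000 of the TMM-scaled total, and a gene with 3 counts or fewer in each library of a group was taken to be at the floor. Ratios of paralogs were taken on counts plus 0.5 and compared by a two-sided exact permutation test. DESeq2 1.42.0 and the other alternatives stand in the closing section. The test was also run on simulated counts, where it recovered most of the large changes put in but few of the smaller ones. Figures were drawn with matplotlib 3.10.9.

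The genes, the pathway lists and the tests were chosen with earlier results of these data known. Named were all genes of the set, Star, the called genes of each pathway list (at most 8) and its 2 most abundant genes, and the 3 genes whose log2 CPM correlated best with the gene of the smallest p-value. The older symbols Irg1 and Mig6 were read as Acod1 and Errfi1 through RefSeq synonyms. Esr2, Nr3c2 and Pgr were not analysed here, nor were steroid or lipid assays.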

Additional observations from a re-analysis of the deposited data

How the results depend on the processing

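With all 6 libraries in the fit, none of the 6 genes was called under any of the 11 alternatives tried. Their directions were kept too, except as follows. With library size alone as the scaling, which moved the median of all genes by 0.43 on the log2 scale, Pgrmc1 became 0.38, Pgrmc2 0.16, Fkbp5 0.31, Serbp1 0.24, Ddx5 0.37, Rbm39 0.15 and Nrip1 0.31. With upper quartile scaling, which moved that median by 0.15, Pgrmc1 became 0.0673, Ddx5 0.0220 and Nrip1 0.0483. With offsets for gene length Pgrmc1 became 0.17. With MA-10 replicate 1 alone as the MA-10 group, an alternative chosen after seeing the data, Nr3c1 became -0.20, Pgrmc1 0.0525, Pgrmc2 0.27, Fkbp5 0.39, Serbp1 0.30, Ddx5 0.49 and Rbm39 0.13, and 2 of the 6 genes were called. The cause of these reversals was not tested.

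Leaving out each library in turn gave log2 fold changes from 0.37 to 0.87 for Esr1, 0.11 to 0.80 for Nr3c1, -0.11 to 0.003439 for Pgrmc1, -0.52 to -0.12 for Pgrmc2, -0.006257 to 0.16 for Fkbp4 and -0.36 to 0.0380 for Fkbp5. In the fit without MA-10 replicate 1, Esr1, Nr3c1, Pgrmc2 and Fkbp5 passed the test, and in none of the other 5 did any of the 6 genes. Cyb5b ran from -0.0543 (without MA-10 replicate 1) to 0.20, Nrip1 from -0.18 to 0.0957 (without MA-10 replicate 1), and Ddx5 from -0.30 to 0.001818 (without MA-10 replicate 3). Hsp90ab1 lay at -0.0276 without MA-10 replicate 2, -0.001295 without STARKO1 replicate 2 and -0.0007033 without STARKO1 replicate 3. The number of the 6 genes called ran from 0 to 4, that of pathway genes from 3 to 101 against 15, and that of all genes from 89 to 7990 against 1079.

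The count of all genes called was 3395 with DESeq2, 5086 with MA-10 replicate 1 alone, 695 with at least 10 counts in every library, 330 with library size alone and, within 1.5 times of 1079, 829 to 1224 in the other fits without a block. The count of pathway genes was 46, 79, 7 and 6 in the same 4 settings. Library size alone made 63.6% of the calls higher in STARKO1. A block for the replicate number left 234 genes and 4 pathway genes called, and gene length offsets beside that block 240 and 6, and Pgrmc1 became 0.17 there. Same-numbered libraries correlated at -0.0346, 0.0907 and -0.0162 in their deviations from the group means, so the numbers were not taken to pair them. The block called none of the 6 genes. In the alternatives that did not leave out a library, Fkbp11, Hsd3b1, Lcn2 and Gper1 passed wherever they had a value, Paqr8 in 5 of 12 and Cebpd in 3 of 12, and the other 9 called pathway genes in 8 to 10.

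On the longest transcript in place of all exons, the levels in CPM per kb were 21.9 (MA-10) and 31.6 (STARKO1) for Esr1, 4.31 for Nr3c1 and 17.4 for Pgrmc2 in STARKO1, and 83.2 and 71.2 for Fkbp5. Gper1, Lcn2, Klf15, Igfbp4, Hsd11b1 and Srd5a2 gave no value with at least 10 counts in every library, nor did Hsp90ab1 and Hspa8 without the 50 most abundant genes. A planned ratio of Nr3c2 to Nr3c1 could not be formed, since Nr3c2 was not analysed here. The lowest count of the 6 genes, 167 for Nr3c1 in MA-10 replicate 2, has a 95% Poisson interval from 142.6 to 194.3, which covers counting error only.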
